A study of Homo sapiens with 12 samples.

Results

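Small nucleolar RNA host genes are transcription units whose introns carry small nucleolar RNAs (snoRNAs). The members here are the rows of the deposited table whose symbol is SNHG followed by digits, and the rows GAS5, ZFAS1, EPB41L4A-AS1 and DANCR, which made 29 of 58735 genes. The RNA came from 2 human cell lines of anaplastic thyroid carcinoma, a thyroid cancer that has lost its differentiated features. KHM-5M, labelled BRAF V600E and grown in RPMI-1640 with 10% fetal bovine serum, and TTA-1, labelled BRAF wild type and grown in DMEM with 10% fetal bovine serum, each received 1 µM GDC-0994, an inhibitor of the ERK kinases, or the vehicle DMSO for 24 h. There were 3 libraries in each of the 4 groups, 12 in all. Each line is 1 culture model, so genotype, medium and line cannot be told apart. No label says that the 3 libraries of a group came from separate cultures, so the p-values measure the spread between these libraries, which may be technical.

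After splicing, the introns of such a host are trimmed to mature snoRNAs. Box C/D snoRNAs guide 2'-O-methylation and box H/ACA snoRNAs guide pseudouridylation of ribosomal and spliceosomal RNA. The spliced host RNA itself is often short-lived: GAS5 and several relatives begin with the terminal oligopyrimidine (TOP) tract of translation-linked mRNAs, are engaged by ribosomes and are removed by nonsense-mediated decay. The libraries were selected for polyadenylated RNA, so their counts follow polyadenylated host RNA and not the mature snoRNA, which has no poly(A) tail. The annotated exons of a row, taken over all its transcripts, can cover most of its span (3756 of 3927 bases for SNHG1). Spliced and unspliced host RNA are therefore not told apart.

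The sequences below show what the hosts carry and how their transcripts begin. SNHG1, the member with the largest fall in KHM-5M, held 6 of the snoRNA genes annotated in the table. The following 3 are given as DNA letters of the RNA strand from the GENCODE 29 transcripts, on GRCh38, minus strand, at chr11:62855564-62855632 (SNORD25), chr11:62855012-62855083 (SNORD27) and chr11:62853663-62853732 (SNORD30). Capitals mark the C box (TGATGA) near the 5′ end and the D box (CTGA) near the 3′ end. These 3 had both boxes in this exact form, whereas SNORD22, SNORD26 and SNORD28 of the same host had only the D box. Among the members' box C/D rows that were searched, 11 of 18 had both.
SNORD25: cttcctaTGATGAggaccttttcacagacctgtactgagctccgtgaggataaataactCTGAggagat
SNORD27: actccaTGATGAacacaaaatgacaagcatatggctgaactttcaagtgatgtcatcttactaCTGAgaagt
SNORD30: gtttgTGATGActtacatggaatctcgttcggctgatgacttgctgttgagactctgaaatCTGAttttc

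SNHG17, the member with the next largest fall, carries a different class, the box H/ACA snoRNAs SNORA71A to SNORA71D. SNORA71C lies on the minus strand at chr20:38429670-38429803 of GRCh38 and is shown because its own row was also called in KHM-5M (below). Capitals mark the ACA at its 3′ end.
SNORA71C: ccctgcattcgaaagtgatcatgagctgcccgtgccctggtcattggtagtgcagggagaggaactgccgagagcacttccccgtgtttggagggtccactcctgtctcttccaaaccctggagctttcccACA

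The start regions below, 40 bases each, come from RefSeq on GRCh38.p14, read 5′ to 3′ on the strand of the gene, and begin 10 bases before the listed start. They are shown for members that rose, fell or were not called in KHM-5M. Capitals mark a TOP start, defined as a C followed by at least 4 more pyrimidines and beginning within 5 bases of the listed start on the gene's strand. SNHG12 (chr1:28581844-28581883, minus) and SNHG17 (chr20:38435299-38435338, minus) fell, SNHG8 (chr4:118278752-118278791, plus) and ZFAS1 (chr20:49278632-49278671, plus) rose, and SNHG5 (chr6:85678704-85678743, minus) and DANCR (chr4:52712384-52712423, plus) were not called. SNHG1 (chr11:62855856-62855895, minus) fell and had no such start in this window.
SNHG12: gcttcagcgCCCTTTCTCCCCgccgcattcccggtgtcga
SNHG17: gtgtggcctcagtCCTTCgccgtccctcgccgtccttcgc
SNHG8: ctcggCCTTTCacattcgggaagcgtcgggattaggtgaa
ZFAS1: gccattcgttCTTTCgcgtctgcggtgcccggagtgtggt
SNHG5: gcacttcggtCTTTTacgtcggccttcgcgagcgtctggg
DANCR: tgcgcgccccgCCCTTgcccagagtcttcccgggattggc
SNHG1: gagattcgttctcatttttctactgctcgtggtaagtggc

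Of the tested members, 21 had a start region that could be searched, without SNHG6, SNHG9, SNHG15 and the SNHG28 row. A TOP start was found in 11 of them, or 52.4%, against 21.1% of all 35116 promoter windows of 300 bases. The share was not particular to the members. Among the gene lists described below, it was 50% for protein-coding snoRNA hosts (22 of 44 windows) and for other TOP mRNAs and LARP1 (6 of 12). It was 17.6% for snoRNP core and assembly genes (3 of 17) and 5.26% for nonsense-mediated decay and exon junction genes (1 of 19). It occurred in 3 of the 5 members that rose in KHM-5M, in 5 of the 9 that fell and in 3 of 7 that were not called. The SNHG14 window, counted among the 5 that rose and without a TOP start, lies at chr15:24823598-24823637. The tested SNHG14 row begins at 24978583, so this window is not the start of that row. The E-box CACGTG, a palindrome that MYC family factors and others can bind, was present in 1 of the 21 windows (SNHG7), or 4.76%, against 7.26% of all windows. GAS5, a known TOP transcript, had none at its listed start. Its window (chr1:173869016-173869055, minus) lies upstream of the counted GAS5 row, which begins at 173868882 on that strand. These matches are letters in a window and depend on the listed start.

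Total counts ranged from 14952970 to 18389915 per library. Of the 29 members, 25 had enough counts to be tested, among 16218 genes in all, and 24 reached a mean FPKM (counts scaled by exon length and library size) of at least 1 in some group. SNHG22, SNHG25, SNHG27 and the SNHG28 row ENSG00000188004 did not pass the filter. SNHG27 and that SNHG28 row had 0 counts in all 12 libraries, and SNHG22 had counts in 1 library only. The symbol SNHG28 stands on a second row, ENSG00000256029, annotated as protein coding, which was tested but stayed below an FPKM of 1. The thyroid transcription factor gene PAX8 had 210 CPM (library-scaled counts, with TMM factors) for KHM-5M given DMSO, 120 for KHM-5M given GDC-0994 and 3.59 for TTA-1 given DMSO. Epithelial markers were mixed. The keratin gene KRT8 had at least 1172 CPM in every library, and the keratin gene KRT18 averaged 490 CPM in KHM-5M DMSO and 629 in TTA-1 DMSO. In these DMSO groups, in the same order, EPCAM averaged only 5.21 and 3.73 CPM, and CDH1 only 0.0191 and 1.94 CPM. The thyroid genes TG, TSHR and SLC5A5 had at most 0.535 CPM in any library, so these markers of differentiated thyroid cells were at or near 0, and the blood markers PTPRC and CD3E were at most 0.158 CPM. A further blood marker, CD14, had 2.00 CPM in KHM-5M with DMSO and 2.03 with GDC-0994, and at most 2.55 in any library. The endothelial marker VWF had 1.12 CPM in KHM-5M with DMSO and 2.64 with GDC-0994, and at most 3.54 in any library.

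Levels differed widely between members. On the FPKM scale, which corrects for exon length, SNHG6 was highest over all libraries, at 65.9 ± 2.59 with DMSO and 64.0 ± 2.59 with GDC-0994 for KHM-5M, against 105 ± 11.3 and 110 ± 10.6 for TTA-1 (SD, n = 3 each here and below). DANCR, named for a role in blocking differentiation and host of SNORA26, followed with an FPKM of 21.7 ± 0.806 in KHM-5M DMSO and 96.4 ± 3.03 in TTA-1 DMSO. GAS5, a transcript first found in growth-arrested cells, followed at 35.8 ± 1.78 and 33.6 ± 1.54. The next by mean FPKM were SNHG8, SNHG19, SNHG1, SNHG16 and SNHG3, and the lowest described members were SNHG14, SNHG21 and SNHG20. Summed over the members, the share of counts was 0.0824% with DMSO and 0.0786% with GDC-0994 for KHM-5M. For TTA-1 these shares were 0.120% and 0.122%.

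**Figure D1:**
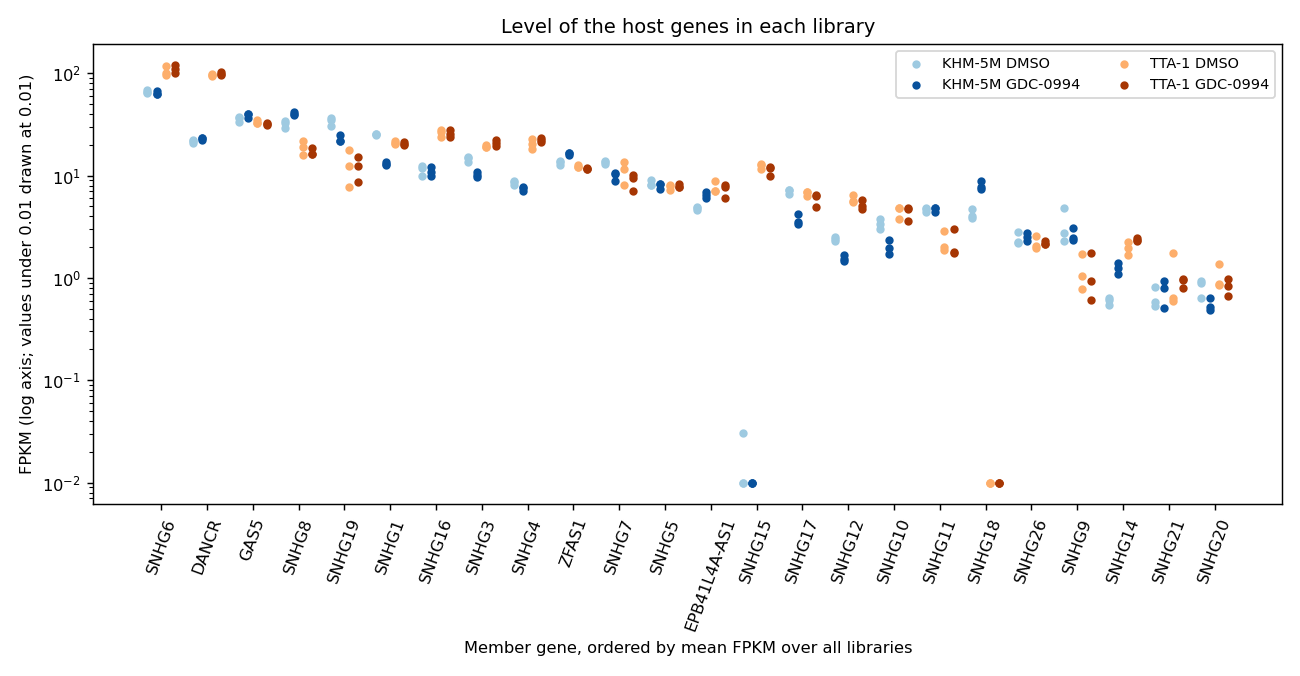
FPKM (log axis) of the 24 members with a mean of at least 1 in some group, ordered by their mean over all libraries; each point is 1 library, coloured by group. SNHG15 lies near or at 0 in KHM-5M and SNHG18 at 0 in TTA-1, and the other 22 members are above 0 in every library.

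The first comparison asked how ERK inhibition changed the hosts in the BRAF V600E line. In KHM-5M, GDC-0994 split the members: 5 rose and 9 fell, and 11 were not called. The called share, 56% of the 25 tested, stands beside 49.8% of all tested genes called in this comparison (24.6% risen and 25.1% fallen), so the share of members called was near the background. Their median log2 fold change was -0.07, against 0.02 over all genes. The members are therefore described one by one. The tests are edgeR quasi-likelihood tests with Benjamini-Hochberg adjustment over all 16218 genes. Values after ± on a log2 fold change are approximate standard errors. Each is the absolute log2 fold change divided by the square root of the F statistic of its test.

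SNHG1 and SNHG17 fell most. SNHG1 hosts only box C/D snoRNAs among the rows of the table and shares a start region with the amino acid transporter gene SLC3A2. Its levels in KHM-5M were 94.6, 98.0 and 97.9 CPM with DMSO and 50.5, 47.4 and 49.3 CPM with GDC-0994. The 2 groups were far apart and each was tight, a fall of 0.98 ± 0.07 on the log2 scale (adjusted p = 5.49e-09). SNHG17 measured 30.6, 30.6 and 28.2 CPM with DMSO and 17.3, 14.5 and 14.1 CPM with GDC-0994. Its log2 fold change was -0.96 ± 0.12 (adjusted p = 3.36e-06), with no overlap between groups. SLC3A2 was not called (log2 fold change -0.14, adjusted p = 0.116).

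SNHG10, SNHG12 and SNHG3 also fell. SNHG10, which hosts SCARNA13, a guide for spliceosomal RNA, had 7.44, 5.94 and 6.65 CPM with DMSO and 3.80, 4.54 and 3.38 CPM with GDC-0994. Its log2 fold change was -0.77 ± 0.17 (adjusted p = 0.00144). SNHG12, which hosts SNORA44, SNORA61, SNORA16A and SNORD99, had 9.81, 10.8 and 10.4 CPM with DMSO and 7.07, 6.53 and 6.32 CPM with GDC-0994. The groups were apart, at a log2 fold change of -0.64 ± 0.12 (adjusted p = 0.000339). SNHG3, host of SNORA73A and SNORA73B, had 55.6, 62.0 and 63.7 CPM with DMSO and 41.2, 39.5 and 44.7 CPM with GDC-0994, again without overlap. Its log2 fold change was -0.53 ± 0.08 (adjusted p = 4.79e-05).

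Another 4 members fell with less firm calls. SNHG20 (log2 fold change -0.62 ± 0.22, adjusted p = 0.0311) lost its call without DMSO replicate 2 or 3 or GDC-0994 replicate 2 or 3, with adjusted p between 0.0897 and 0.142. SNHG19, whose DMSO libraries held 12.5, 10.5 and 12.3 CPM against 8.33, 7.36 and 7.55 CPM with GDC-0994, had a log2 fold change of -0.60 ± 0.21 (adjusted p = 0.0259), and lost the call without DMSO replicate 1 or 3 or GDC-0994 replicate 2 or 3 (0.0822 to 0.101). SNHG7 (-0.46 ± 0.15, adjusted p = 0.0183) lost it without DMSO replicate 1 or 3 or GDC-0994 replicate 3 (0.0661 to 0.106). SNHG4 (-0.24 ± 0.09, adjusted p = 0.0350) lost it without any of the 3 DMSO replicates or GDC-0994 replicate 2 or 3 (0.0520 to 0.152). Without DMSO replicate 3 or without GDC-0994 replicate 3, 5 members were called as fallen instead of 9.

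On the rising side, SNHG14 changed most. It is a long paternally expressed transcript of the Prader-Willi and Angelman imprinted region on chromosome 15 that carries the SNORD115 and SNORD116 clusters and runs antisense across UBE3A. The row spans 440880 bases and contains 83 of the table's snoRNA genes. Its levels were 23.8, 28.0 and 26.8 CPM with DMSO and 46.9, 53.5 and 61.4 CPM with GDC-0994. The log2 fold change was 1.04 ± 0.11 (adjusted p = 1.05e-06). SNHG18, host of SNORD123, had 9.30, 7.67 and 8.02 CPM with DMSO and 17.0, 15 and 14.4 CPM with GDC-0994. Its log2 fold change was 0.89 ± 0.15 (adjusted p = 0.000240). Neither gene's groups overlapped.

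EPB41L4A-AS1, SNHG8 and ZFAS1 rose by smaller amounts. EPB41L4A-AS1, host of SNORA13, had 15.4, 16.3 and 16.7 CPM with DMSO and 22.6, 21.4 and 20.3 CPM with GDC-0994 (log2 fold change 0.41 ± 0.12, adjusted p = 0.0105). SNHG8, host of SNORA24, had 31.5, 27.2 and 31.0 CPM with DMSO and 35.9, 38.2 and 37.2 CPM with GDC-0994. Its log2 fold change of 0.31 ± 0.11 (adjusted p = 0.0255) lost the call without DMSO replicate 2 (0.0840) or GDC-0994 replicate 2 (0.0821). ZFAS1, host of SNORD12 family members, had 29, 31.7 and 31.0 CPM with DMSO and 37.1, 37.2 and 35.5 CPM with GDC-0994 (log2 fold change 0.26 ± 0.08, adjusted p = 0.0116), and its call was lost with no filter on low counts (0.0626).

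**Figure D2:**
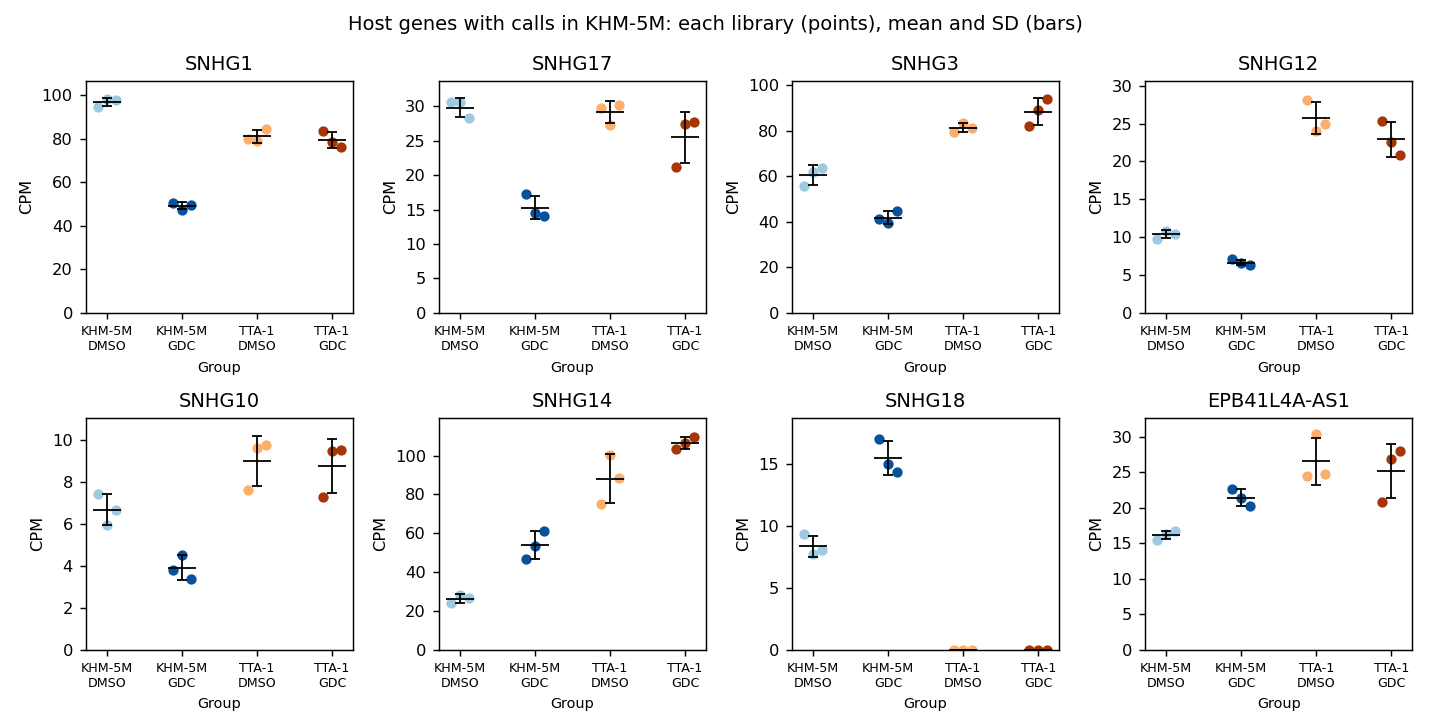
CPM of 8 members called in KHM-5M in each library (points), with the mean and SD of each group (bars), on linear axes that start at 0. In KHM-5M the DMSO and GDC-0994 points do not overlap for any of the 8, and SNHG18 is at 0 in all 6 TTA-1 libraries.

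The 3 hosts with the highest mean FPKM over both lines, SNHG6, DANCR and GAS5, were not called in KHM-5M. Within KHM-5M DMSO, SNHG19 (FPKM 33.9), SNHG8 (32.0) and SNHG1 (25.4), all called, stood between GAS5 and DANCR. SNHG6, host of SNORD87, had 86.3, 80.4 and 83.1 CPM with DMSO and 82.5, 76.9 and 78.7 CPM with GDC-0994, so the groups overlapped (log2 fold change -0.07 ± 0.09). DANCR had 50.3, 51.9 and 48.5 CPM against 52.9, 52.8 and 51.6 CPM (0.06 ± 0.07). GAS5 had 135, 124 and 135 CPM against 143, 143 and 133 CPM (0.09 ± 0.07). SNHG16 had 63.7, 67.2 and 54.6 CPM against 52.6, 58.1 and 66.0 CPM (-0.07 ± 0.10). SNHG5, host of SNORD50 family members, SNHG11 and SNHG26 were also near 0, at -0.10 ± 0.09, -0.02 ± 0.18 and 0.04 ± 0.15. The estimates for SNHG9 (-0.36 ± 0.36) and SNHG21 (0.17 ± 0.44) had wide errors at mean levels of at most 1.84 CPM in KHM-5M, where a change of moderate size was not detectable. DANCR was called as risen (adjusted p = 0.0218) only after a length and GC trend was removed from each library, and the SNHG28 row ENSG00000256029 (0.75 ± 0.53) was called without DMSO replicate 3 (adjusted p = 0.0251).

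The second comparison put the same question to the BRAF wild-type line. In TTA-1, GDC-0994 gave a call in 0 of the 25 tested members by edgeR, against 3.43% of all tested genes (1.18% risen and 2.24% fallen), with 2 at an unadjusted p under 0.05 and 0 called by DESeq2 or by limma on log2(FPKM + 1). The log2 fold changes of the 22 described members outside SNHG15 and SNHG18 ran from -0.32 to 0.28. SNHG1 had 79.8, 79.1 and 84.5 CPM with DMSO and 83.4, 78.5 and 76.2 CPM with GDC-0994 (-0.03 ± 0.07, adjusted p = 0.879). SNHG17 had 29.8, 27.4 and 30.3 CPM against 21.2, 27.5 and 27.8 CPM (-0.19 ± 0.11, adjusted p = 0.410). SNHG3 had 79.2, 83.5 and 81.2 CPM against 82.2, 88.8 and 93.9 CPM (0.12 ± 0.08, adjusted p = 0.485). All 3 had overlapping groups.

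These hosts were not called in TTA-1 either. SNHG6 had 128, 150 and 125 CPM with DMSO and 129, 142 and 154 CPM with GDC-0994. DANCR had 226, 219 and 235 CPM against 227, 242 and 231 CPM. GAS5 had 123, 132 and 122 CPM against 117, 122 and 121 CPM, with log2 fold changes of 0.08 ± 0.08, 0.04 ± 0.06 and -0.07 ± 0.07 for the 3 genes in this order. Their groups overlapped except for GAS5, whose highest treated library lay just under the lowest DMSO library. SNHG16, host of box C/D snoRNAs of the SNORD1 family, had 130, 152 and 148 CPM against 133, 141 and 152 CPM (-0.02 ± 0.10). SNHG19 had 6.25, 2.70 and 4.42 CPM against 4.4, 5.41 and 3.04 CPM (-0.05 ± 0.25), a spread within each group wider than the difference.

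Of the described members, SNHG14 and SNHG7 had the smallest adjusted p in TTA-1. The other member at an unadjusted p under 0.05 was the SNHG28 row ENSG00000256029 (adjusted p = 0.265), with 0 counts in all TTA-1 DMSO libraries and 2, 1 and 2 counts with GDC-0994. SNHG14 had 75.3, 100 and 88.5 CPM with DMSO and 104, 107 and 109 CPM with GDC-0994, without overlap, at a log2 fold change of 0.28 ± 0.11 (adjusted p = 0.193). SNHG7 had 60.6, 36.4 and 52.8 CPM with DMSO and 45.5, 43.1 and 31.4 CPM with GDC-0994, which overlapped (-0.32 ± 0.16, adjusted p = 0.302). Without TTA-1 DMSO replicate 2 both were called, SNHG14 at an adjusted p of 0.0177 and SNHG7 at 0.00602, and without it 2620 genes were called in TTA-1 in place of 556. The count was 349 without TTA-1 DMSO replicate 1, 311 without TTA-1 DMSO replicate 3 or TTA-1 GDC-0994 replicate 2, and 259 without TTA-1 GDC-0994 replicate 3. TTA-1 DMSO replicates 1 and 2 stood apart by base composition. Across 9528 genes, the deviation of a library from its group mean correlated with GC content at 0.755 in replicate 1 and -0.715 in replicate 2, and the next were KHM-5M GDC-0994 replicates 1 and 3 at 0.613 and -0.575 (a description over genes). Over 22 members, the log2 ratio of replicate 1 to replicate 2 rose with GC content of the annotated transcripts (Pearson's r 0.76, Spearman's rho 0.66, a description over genes of the same pair of libraries, with transcript length and depth not held fixed). The GC-rich members SNHG19, SNHG7 and SNHG9 had log2 ratios of 1.21, 0.74 and 0.72, and SNHG14 had -0.42. The part of composition in the TTA-1 values was not tested.

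**Figure D3:**
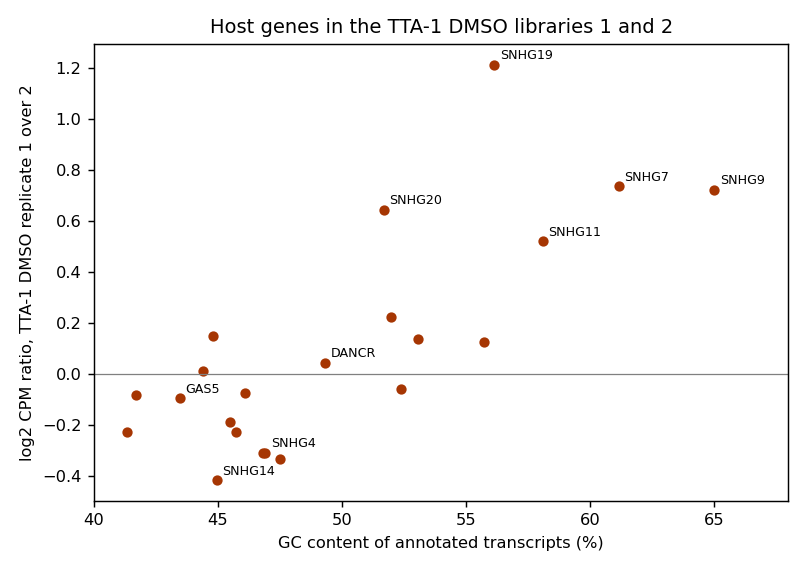
The log2 CPM ratio of TTA-1 DMSO replicate 1 over replicate 2 (vertical axis) against the GC content of annotated transcripts in percent (horizontal axis), 1 point for each of 22 members. The highest ratios belong to members above 50% GC, with SNHG19 at 1.21 and SNHG14 lowest at -0.42.

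The difference between the lines was tested as an interaction in the same edgeR fit. It was called for 10 of 25 members, or 40%, against 27.9% of all tested genes (12.3% higher and 15.6% lower in KHM-5M). The effect was lower in KHM-5M than in TTA-1 for SNHG1 (difference of log2 fold changes -0.95 ± 0.10, adjusted p = 1.44e-06), SNHG17 (-0.77 ± 0.16, adjusted p = 0.00198) and SNHG3 (-0.65 ± 0.12, adjusted p = 0.000400). These 3 calls held under each alternative setting that was run, including leaving out each library. The effect was higher in KHM-5M for SNHG14 (0.76 ± 0.16, adjusted p = 0.00145), which fell short only with limma on log2(FPKM + 1) (0.0745, and 0.129 without a filter). For SNHG18 no difference can be read, because TTA-1 had 0 counts.

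The other 6 differences were near the threshold. They were SNHG10 (-0.73 ± 0.24, adjusted p = 0.0288), SNHG12 (-0.48 ± 0.16, 0.0374), SNHG4 (-0.36 ± 0.12, 0.0349), EPB41L4A-AS1 (0.48 ± 0.17, 0.0441), SNHG8 (0.46 ± 0.16, 0.0420) and ZFAS1 (0.33 ± 0.11, 0.0410). In TTA-1 itself, EPB41L4A-AS1 had 24.5, 30.4 and 24.8 CPM with DMSO and 20.9, 26.8 and 27.9 CPM with GDC-0994, and SNHG8 had 18.1, 20.7 and 15.3 CPM against 15.5, 18.0 and 15.3 CPM, both overlapping. SNHG10 there had 7.62, 9.60 and 9.78 CPM against 7.27, 9.49 and 9.54 CPM, overlapping as well. 

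Each of these 6 calls was lost when certain single libraries were left out. ZFAS1 lost it without KHM-5M DMSO replicate 1, KHM-5M GDC-0994 replicate 1 or 2 or TTA-1 GDC-0994 replicate 2 (adjusted p 0.0570 to 0.0911). SNHG8 lost it without KHM-5M DMSO replicate 2, KHM-5M GDC-0994 replicate 2, TTA-1 DMSO replicate 2 or TTA-1 GDC-0994 replicate 1 or 3 (0.0501 to 0.0924). EPB41L4A-AS1 lost it without KHM-5M DMSO replicate 1 or 2, KHM-5M GDC-0994 replicate 1 or 2 or TTA-1 GDC-0994 replicate 1 (0.0556 to 0.0847). SNHG10 lost it without KHM-5M DMSO replicate 1 or 3, KHM-5M GDC-0994 replicate 1 or 3, TTA-1 DMSO replicate 1 or TTA-1 GDC-0994 replicate 2 or 3 (0.0560 to 0.1002). SNHG12 kept it only without KHM-5M GDC-0994 replicate 1, TTA-1 DMSO replicate 1 or TTA-1 GDC-0994 replicate 3, and SNHG4 only without KHM-5M GDC-0994 replicate 1 or TTA-1 DMSO replicate 2. Without the others, the adjusted p was 0.0748 to 0.15 for SNHG12 and 0.0527 to 0.127 for SNHG4. SNHG19 gained a call without TTA-1 DMSO replicate 1 (0.0459). The number of members called was 5 without KHM-5M DMSO replicate 1 or KHM-5M GDC-0994 replicate 2, and 6 without KHM-5M DMSO replicate 2 or TTA-1 GDC-0994 replicate 1 or 2. Both GDC-0994 comparisons enter this difference, and it shares its libraries with each of them.

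**Figure D4:**
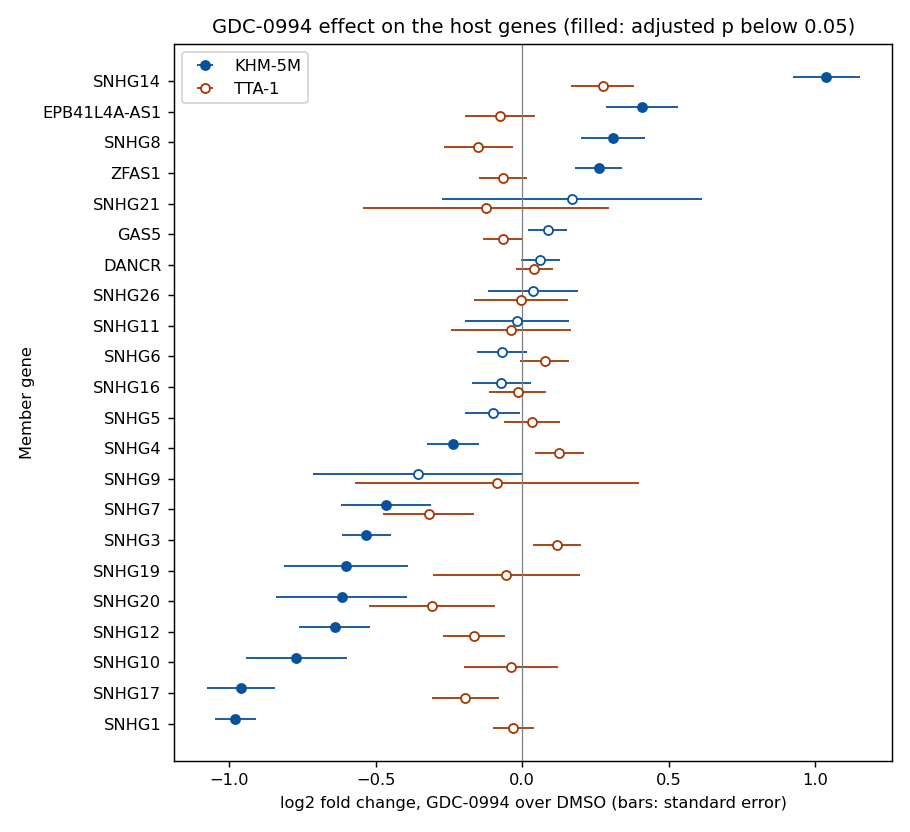
Log2 fold change with GDC-0994 (horizontal axis, bars are standard errors) of 22 members in KHM-5M and TTA-1; filled points passed an adjusted p of 0.05. In KHM-5M the values run from SNHG1 at -0.98 to SNHG14 at 1.04, whereas in TTA-1 they run from -0.32 to 0.28 and no point is filled; SNHG15, SNHG18 and the SNHG28 row are left out.

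The untreated lines were then compared. With DMSO, 17 of 25 members differed, 7 higher and 10 lower in KHM-5M than in TTA-1, or 68% against 76.5% of all tested genes (39.6% higher and 36.8% lower), so the share was near the background. The members with all-or-none patterns were SNHG15 and SNHG18. SNHG15, host of SNORA9, had 47.9, 43.6 and 49.5 CPM in TTA-1 DMSO and 0.113, 0 and 0 CPM in KHM-5M DMSO. As counts, these were 2183 over the TTA-1 libraries and 2 over the KHM-5M libraries, a depth-scaled ratio of 1235 with a 95% exact counting interval of 341 to 10204 that covers counting error only. With GDC-0994 there were 1892 counts in TTA-1 and 0 in KHM-5M, at least 757-fold higher in TTA-1 against a floor of 3 counts over the group. SNHG18 was the reverse, with 438 counts in KHM-5M DMSO and 0 in TTA-1 DMSO, at least 129-fold higher, and 827 and 0 with GDC-0994, at least 229.6-fold higher.

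Among members measured in both lines, DANCR differed most. Its TTA-1 DMSO libraries held 226, 219 and 235 CPM against 50.3, 51.9 and 48.5 CPM for KHM-5M, a log2 difference of -2.17 ± 0.07 (KHM-5M over TTA-1, adjusted p = 2.52e-14). SNHG14 was also lower in KHM-5M (-1.75 ± 0.11, adjusted p = 3.98e-10), as were SNHG12 (-1.31 ± 0.11), SNHG4 (-1.27 ± 0.09), SNHG16 (-1.21 ± 0.10), EPB41L4A-AS1 (-0.72 ± 0.12), SNHG6 (-0.69 ± 0.09), SNHG3 (-0.43 ± 0.08) and SNHG10 (-0.43 ± 0.16), with adjusted p of at most 0.0235. SNHG16 had 130, 152 and 148 CPM in TTA-1 DMSO, and SNHG6 had 128, 150 and 125 CPM, each above all KHM-5M DMSO values. The SNHG10 call was lost without KHM-5M DMSO replicate 2 or 3 or TTA-1 DMSO replicate 2 or 3 (adjusted p 0.0548 to 0.0985).

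Higher in KHM-5M DMSO were SNHG9 (1.45 ± 0.41), SNHG19 (1.40 ± 0.23), SNHG11 (1.01 ± 0.19), SNHG8 (0.73 ± 0.11) and SNHG1 (0.26 ± 0.07), with adjusted p of at most 0.00403. SNHG19 had 6.25, 2.70 and 4.42 CPM in TTA-1 DMSO, a wide spread below all KHM-5M DMSO values. The SNHG28 row ENSG00000256029 had 3, 5 and 16 counts in KHM-5M DMSO and 0 in TTA-1 DMSO. GAS5 (0.07 ± 0.07), ZFAS1 (0.10 ± 0.08), SNHG5 (0.09 ± 0.09), SNHG17 (0.03 ± 0.11) and SNHG26 (0.11 ± 0.16) were not called, and neither were SNHG7 (0.26 ± 0.15), SNHG20 and SNHG21. SNHG7 was called without TTA-1 DMSO replicate 1 (adjusted p = 0.0141). After removal of length and GC trends per library, GAS5 (adjusted p = 7.07e-05), SNHG26 (0.0102) and SNHG5 (0.0114) were called as higher in KHM-5M. In that setting SNHG7 (-0.33, adjusted p = 0.00268), SNHG17 (-0.30, 0.00766) and SNHG20 (0.0262) were called as lower, and SNHG9 was not called (0.0780). The DMSO libraries of GAS5 and SNHG5 overlapped between the lines.

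Several members share exons or a start region with another gene, and the protocol in the labels has no step that marks strand, so reads of overlapping exons cannot be assigned to one of the pair. Of the genes overlapping a tested member, or starting within 1 kb of it on the other strand, 30 were tested, next to 18 members. In KHM-5M, 6 rose and 5 fell, against 24.6% and 25.1% of all tested genes. The 30 include the snoRNA rows SNORA26, SNORD99, SNORA71A, SNORA71B, SNORA71C and SNORA73B, which are counted again with the snoRNA rows below. SNORA71C is among the 5 that fell. In TTA-1 0 of 30 were called by edgeR (3.43% of all genes), and the difference was called for 5 (27.9% of all genes). RCC1, a chromatin-bound exchange factor for the GTPase Ran whose locus overlaps SNHG3 on the same strand, fell by 1.15 on the log2 scale in KHM-5M (adjusted p = 5.04e-09), alongside -0.53 for SNHG3. SEC14L1, which overlaps SNHG20, had a log2 fold change of -1.26 (adjusted p = 1.29e-10), and GLRX5, an iron-sulfur cluster assembly gene antisense to SNHG10, had -0.81 (adjusted p = 1.22e-06) beside -0.77 for SNHG10.

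For SNHG14, the overlapping genes SNRPN (0.79, adjusted p = 0.00456) and PWAR6 (1.36, adjusted p = 0.00385) rose in KHM-5M, while UBE3A, which lies antisense to it, had a log2 fold change of 0.03 (adjusted p = 0.823). Beside SNHG18, the divergent gene SEMA5A, a semaphorin, rose by 2.81 on the log2 scale (adjusted p = 3.34e-05). ZBTB37 beside GAS5 rose (0.63, adjusted p = 0.00278) while GAS5 was not called. AL590560.1 beside SNHG28 (1.30) rose as well, and CFAP45 there fell (-1.89). What overlapping reads add to the members' values was not tested.

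The machinery that works on snoRNAs was read from a list of 21 genes for snoRNP core and assembly proteins, all tested. In KHM-5M, 0 rose and 15 fell (24.6% and 25.1% over all genes), with a median log2 fold change of -0.60 against 0.02 over all genes. NOP56, a core protein of box C/D particles, fell by 1.24 (adjusted p = 7.83e-10), DKC1, the pseudouridine synthase of box H/ACA particles, fell by 1.13 (adjusted p = 1.78e-09), and NOLC1, a chaperone of snoRNPs, changed by -0.997 (adjusted p = 1.89e-09). In TTA-1, 0 of 21 were called by edgeR (3.43% of all tested genes), with 3 at an unadjusted p under 0.05. The difference was called for 11, all lower in KHM-5M, against 27.9% of all tested genes called and 15.6% lower. With DMSO, 4 were higher and 15 lower in KHM-5M than in TTA-1, against 39.6% and 36.8% of all tested genes.

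Protein-coding snoRNA hosts, 42 genes, shared NOP56 and DKC1 with that list. In KHM-5M, 2 rose and 17 fell, with a median of -0.11. Over all tested genes 49.8% were called, so the total of 19 is near that share. By direction, 24.6% of all tested genes rose and 25.1% fell, so the list held fewer rises and more falls. EIF4A2, a translation initiation helicase, rose by 0.46 (adjusted p = 9.88e-05) and EEF2, the translation elongation factor, by 0.24 (adjusted p = 0.0175), while HSPA8, a constitutive chaperone, had a log2 fold change of -0.98 (adjusted p = 8.29e-10). In TTA-1, 1 of 42 was called, against 3.43% of all tested genes. It was the ribosomal protein gene RPL10, at -0.34 (adjusted p = 0.0121).

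Counts in the remaining lists also stand beside 24.6% risen and 25.1% fallen over all genes in KHM-5M, and 3.43% called in TTA-1. Of 15 genes for nonsense-mediated decay and the exon junction complex, 2 rose and 8 fell in KHM-5M and 0 were called in TTA-1 by edgeR, with 2 there at an unadjusted p under 0.05. SMG8 (0.32) and UPF3A (0.27) rose, and the exon junction proteins EIF4A3 (-0.61) and MAGOH (-0.92) and the kinase partner SMG9 (-0.68) fell, with adjusted p of at most 0.0270. Of 13 tested genes of other TOP mRNAs and LARP1, 4 rose and 4 fell in KHM-5M and 0 were called in TTA-1 by edgeR, with 2 there at an unadjusted p under 0.05. EEF1A1 (0.34), EIF3H (0.25) and EIF3E (0.35) rose, whereas VIM (-0.36), NPM1 (-0.31) and LARP1 (-0.43), which codes for the protein that binds TOP starts, fell, with adjusted p of at most 0.00519.

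The deposited table also has rows for the snoRNAs themselves, and 129 of them lie inside a member. All snoRNA and scaRNA rows together took 0.00146% to 0.00368% of counts per library. Where a small RNA row overlapped an exon of its host, all 39 rows were at 0 in all 12 libraries. Where it overlapped none, 35 of 90 had counts. Outside SNHG14 these were 0 of 26 and 18 of 20. The rows of SNORD25, SNORD27 and SNORD30, shown above, overlap annotated exons of SNHG1 and were at 0, so no value of these snoRNAs stands beside the fall of their host. The role of the counting rule in these zeros was not tested.

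**Figure D5:**
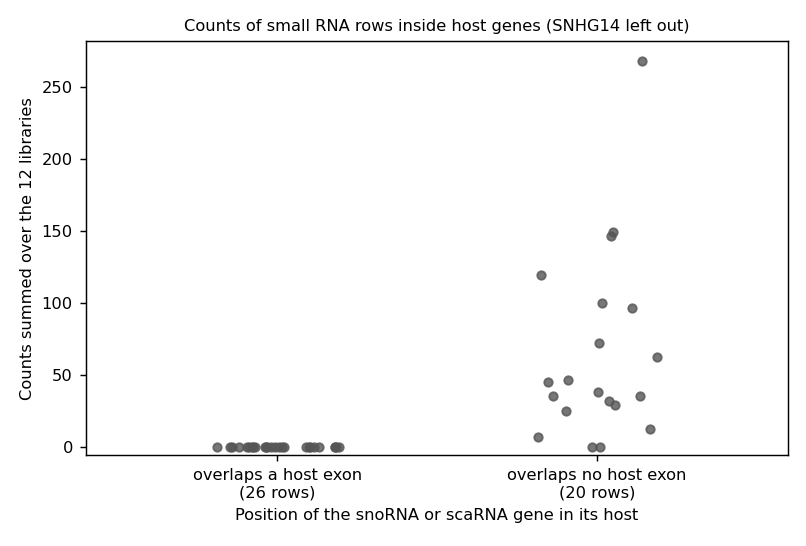
Counts summed over the 12 libraries for snoRNA and scaRNA rows inside the members other than SNHG14, split by whether the row overlaps an annotated exon of its host; each point is 1 row, spread sideways at random. All 26 exon-overlapping rows are at 0, and 18 of the other 20 are above 0.

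Among these rows 7 passed the filter and were tested. In KHM-5M, 2 fell and 0 rose, against 25.1% and 24.6% of all tested genes, so the number that fell is near that share. SNORA71C, inside SNHG17, had 15, 11 and 18 counts with DMSO and 4, 4 and 4 with GDC-0994, a log2 fold change of -1.86 ± 0.52 (adjusted p = 0.00651), while SNORA71A (-0.03 ± 0.69) and SNORA71B (-0.58 ± 0.41) in the same host were not called. SNORD104, inside SNHG25, had 31, 16 and 20 counts with DMSO and 6, 4 and 9 with GDC-0994 (-1.81 ± 0.53, adjusted p = 0.00935). SNORA73B, inside SNHG3, had 16, 9 and 15 counts against 13, 6 and 5 (-0.75 ± 0.39, adjusted p = 0.122). None of the 7 was called in TTA-1 by edgeR, against 3.43% of all tested genes. These counts are low, and in libraries of polyadenylated RNA they do not measure mature snoRNA. The SNORA71 genes have closely related sequences, so the reads assigned to each of them are uncertain.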

How the data were processed

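The table of counts deposited by the authors holds whole-number reads per gene, and the FPKM table deposited by the authors holds the same reads scaled by exon length and library size. The submitters' processing notes list HISAT2 2.0.5 and featureCounts 1.5.0-p3, besides CASAVA and the build GRCh38, without their roles. All 58735 gene IDs had the same start and end in GENCODE 29. Per the labels' protocols, libraries were poly(A)-selected with no strand-marking step.

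Low counts were removed by filterByExpr (at least 10 counts and 15 in total). After TMM scaling, models were fitted with edgeR 4.0.16 (R 4.3.3, quasi-likelihood, 4 group means, 8 residual degrees of freedom). A call is a Benjamini-Hochberg adjusted p below 0.05 over 16218 genes. Alternatives were DESeq2 1.42.0, limma 3.58.1 on FPKM with pseudocounts 1 and 0.1, other scalings and filters, only the groups compared, a replicate block, a length and GC offset, and leaving out each library. The fit was tested on simulated data of 16218 genes for KHM-5M, of which 200 were changed. Of 100 genes changed by a log2 value of 1, 99% were recovered, and of 100 changed by 2, 100%, with 17 false calls. Smaller changes, changes in genes of low level, differences between the lines and GC trends were not simulated.

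Members and lists were chosen with earlier results of these data known. Named were all members, with library values for the 8 highest by FPKM, the 3 largest called rises and falls and the 3 largest differences each way; called neighbours; and up to 3 called genes per list and direction by p, some of which are given by count only. Values for further members were added after they were seen. Start regions of SNHG6, SNHG9, SNHG15 and SNHG28 were not used here. A few neighbours and markers are not reported here.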

Additional observations from a re-analysis of the deposited data

Results flagged for a closer look

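The GDC-0994 effect differed between the lines by the edgeR interaction test for the following genes, given as the log2 effect in KHM-5M minus that in TTA-1. Among members it was -0.95 for SNHG1, -0.77 for SNHG17, -0.73 for SNHG10, -0.65 for SNHG3, -0.48 for SNHG12, -0.36 for SNHG4, 0.76 for SNHG14, 0.48 for EPB41L4A-AS1, 0.46 for SNHG8 and 0.33 for ZFAS1. Among list genes named for their calls in KHM-5M it was -1.23 for NOP56, -1.05 for DKC1, -0.99 for HSPA8, -0.88 for NOLC1, -0.77 for MAGOH, -0.70 for EIF4A3, -0.44 for LARP1, -0.35 for NPM1, 0.44 for EEF1A1, 0.41 for UPF3A, 0.39 for EEF2, 0.39 for SMG8 and 0.37 for EIF4A2. Each difference uses all 4 groups, and the share of all tested genes called in this comparison is 27.9%.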

How the results depend on the processing

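In KHM-5M, 8 of the 14 member calls held under all settings run: SNHG1, SNHG3, SNHG10, SNHG12, SNHG14, SNHG17, SNHG18 and EPB41L4A-AS1. Of the 17 calls between the DMSO groups 14 held, and of the 10 for the difference 3. Fallen members numbered 5, not 9, under limma whether fitted to log2(FPKM + 1), filtered or not, or to log2(FPKM + 0.1). Leaving out single libraries gave 10 to 14 called, 5 to 9 fallen and 4 to 6 risen in KHM-5M, 0 to 2 called, 0 to 1 fallen and 0 to 1 risen in TTA-1, 5 to 9 called, 3 to 5 fallen and 1 to 4 risen for the difference, and 16 to 18 called between the DMSO groups. In TTA-1, 1 member (fallen) was called with no filter. Members with a called difference numbered 6 (3 fallen) with limma on log2(FPKM + 1), and 5 (2 risen, 3 fallen) without its filter. Over all genes in TTA-1, 556 calls became 856 with DESeq2, 1206 with no filter, 206 with only the groups compared, 341 with limma without a filter, 1029 with the length and GC trend removed, and 259 to 2620 when single libraries were left out. Removing that trend reversed the DMSO comparison of SNHG7 to -0.33 (from 0.26) SNHG17 to -0.30 (from 0.03), SMG9 to -0.073 (from 0.37) and EIF3E to 0.53 (from -0.05). Without DANCR, the member with the most counts over all 12 libraries, the summed share was 0.0773%, 0.0731%, 0.0985% and 0.0997% of counts in KHM-5M DMSO, KHM-5M GDC-0994, TTA-1 DMSO and TTA-1 GDC-0994. As summed FPKM in place of counts, the groups in this order held 319, 299.8, 432 and 433.

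No label says that replicate numbers pair the libraries. Deviations from the group mean correlated at -0.146 to 0.272 between same-numbered DMSO and GDC-0994 libraries of a line. Between differently numbered libraries the values were -0.410 to 0.411. In some libraries these deviations also followed GC content, so such correlations cannot decide whether cultures were paired. With the replicate block, KHM-5M had 14 called members and TTA-1 had 0, with 8 for the interaction and 17 between the DMSO groups. Members below about 2 CPM, such as SNHG9 and SNHG21, had standard errors of 0.36 or more. The cause of these changes was not tested.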
